A study of Homo sapiens with 4 samples.

Results

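The genes described here take creatine up, make it and use it as an energy store. They are SLC6A8, GATM, GAMT, CKB, CKMT1A and CKMT1B, chosen by gene symbol from the table of read counts, which holds 57905 genes. All 6 symbols were found, each on 1 entry. Creatine is carried into the cell by SLC6A8, a sodium- and chloride-coupled transporter in the plasma membrane. GATM joins arginine and glycine to guanidinoacetate in the mitochondrion, and GAMT then methylates guanidinoacetate to creatine in the cytosol. Creatine kinases pass a phosphate between ATP and creatine, CKB in the cytosol and CKMT1A and CKMT1B, which encode the ubiquitous mitochondrial enzyme, in the space between the mitochondrial membranes.

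The cells were A549, an established line of human lung adenocarcinoma, and each of the 4 conditions had 1 RNA-seq library. One pair of cell populations carried a scrambled hairpin (sc) or a hairpin against DCBLD2 (shDCBLD2), expressed from the H1 promoter of a lentiviral vector with a puromycin marker. The other pair carried an empty lentiviral vector or the vector labelled DCBLD2 overexpression, which holds the complete DCBLD2 coding sequence behind an EF1 promoter, with a blasticidin marker. All 4 thus carry an integrated lentiviral construct, and whether a population was a pool or grown from 1 clone is not given in the sources used here. The knockdown library is titled shD5, a label that was not matched to a hairpin sequence here. DCBLD2 is a neuropilin-like membrane receptor, and the comparisons ask how its level bears on gene expression in these cells. Because no condition has a replicate, no p-value is given. The intervals are exact 95% intervals (Clopper-Pearson) that cover counting error only, and the spread between cultures is unknown.

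The libraries held 19104052 counts on genes in sc, 21537283 in shDCBLD2, 18718562 for the empty vector and 16601633 for the library labelled DCBLD2 overexpression. DCBLD2 itself was at 504 CPM (counts relative to the library total, with TMM scaling between libraries) in sc, 197 in shDCBLD2, 434 for the empty vector and 242 for the library labelled DCBLD2 overexpression. DCBLD2 was therefore lower in shDCBLD2 than in sc by 1.35 on the log2 scale, but the library labelled DCBLD2 overexpression was also below its control, with a log2 ratio of −0.84 (interval −0.90 to −0.79). That library stood apart in a further way: 66 genes had at least 50 counts in it and at most 3 in each other library, and no other library had any such gene. One of them was CDKN2A, a cell cycle inhibitor at 9p21, with 2104 counts there and 0 in each of the others. Every ratio that uses this library rests on it alone, so its values are given under its label, shortened to “the library labelled overexpression”, and not as an effect of DCBLD2.

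SLC6A8 (ENSG00000130821) is deposited on chromosome X from 152953554 to 152962048 on the plus strand, with 5498 exonic bases. The genome build of the deposited coordinates is not given in the sources used here. SLC6A8 had 439 counts in sc, 444 in shDCBLD2, 429 for the empty vector and 1056 for the library labelled overexpression. Scaled for depth these were 22.4, 20.6, 23.4 and 64.0 CPM. The intervals of the first 3 libraries overlapped, between 18.7 and 25.7 CPM, and that of the library labelled overexpression, 60.2 to 68.0 CPM, lay above them. The transporter was thus 2.74-fold higher in that library than with the empty vector (interval 2.44 to 3.07), a log2 ratio of 1.45, and 532 of the 13966 genes with a mean of at least 1 CPM had a higher ratio. More RNA per cell and more cells with the RNA cannot be told apart in such bulk libraries. With the hairpin the ratio against sc was −0.12 (interval −0.32 to 0.07), and the empty vector differed from sc by 0.06 (interval −0.14 to 0.25).

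Parts of SLC6A8 have near-identical copies elsewhere in the genome. Of the 50-base windows of its annotated transcripts, 9.30% also occur in transcripts of other genes, and at 100 bases the share was 1.84%. At both lengths 3 genes shared windows: SLC6A10P, AC133561.1 and AC244107.1. The copy SLC6A10P had 0 counts in all 4 libraries. The counts of AC133561.1, AC244107.1 and the copy SLC6A10PB were not analysed here. If reads with several matches went uncounted, the counts of SLC6A8 and of its copies would be too low. The neighbouring gene PNCK, which overlaps SLC6A8 on the opposite strand, had 0, 0, 5 and 5 counts in sc, shDCBLD2, the empty vector and the library labelled overexpression.

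Synthesis was represented by a gene at a low level and a gene at a high one. GATM (ENSG00000171766), the first enzyme, is deposited on chromosome 15 from 45653322 to 45694525 on the minus strand, with 6644 exonic bases. It had 70 counts in sc, 101 in shDCBLD2, 128 for the empty vector and 102 for the library labelled overexpression, or 3.58, 4.68, 6.97 and 6.18 CPM. In order of level, from sc over shDCBLD2 and the library labelled overexpression to the empty vector, the intervals of neighbours overlapped. That of sc lay below those of the last pair, and that of shDCBLD2 lay below that of the empty vector. GATM was the member of the 6 with a ratio below 0 between the library labelled overexpression and the empty vector, −0.17 (interval −0.56 to 0.21), which does not separate it from no change. Its ratio in shDCBLD2 against sc was 0.38 (interval −0.07 to 0.85). The larger difference lay between the controls, where the empty vector was 1.95-fold above sc (interval 1.45 to 2.65) and so fell just short of 2-fold.

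GAMT (ENSG00000130005), the methyltransferase of the second step, is deposited on chromosome 19 from 1397091 to 1401569 on the minus strand, with 1739 exonic bases. Its counts were 863 in sc, 793 in shDCBLD2, 1085 for the empty vector and 1498 for the library labelled overexpression, or 44.1, 36.8, 59.1 and 90.8 CPM. None of the 4 intervals overlapped, from the lowest in shDCBLD2 (34.2 to 39.4 CPM) to the highest in the library labelled overexpression (86.2 to 95.5 CPM). Each of the 3 ratios was under 2-fold, while the library labelled overexpression was 2.06-fold above sc (interval 1.89 to 2.24). The log2 ratio was 0.62 (interval 0.50 to 0.73) for the library labelled overexpression against the empty vector, −0.26 (interval −0.40 to −0.12) for shDCBLD2 against sc, and 0.42 (interval 0.29 to 0.55) for the empty vector against sc.

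Levels of different genes were compared per exonic length, in the deposited FPKM. GAMT was at 25.98 FPKM in sc, 21.17 in shDCBLD2, 33.33 for the empty vector and 51.89 for the library labelled overexpression, whereas GATM was at 0.55, 0.71, 1.03 and 0.92 FPKM. The ratio of GAMT to GATM on this scale was 47.2 in sc (interval 36.9 to 61.0), 29.8 in shDCBLD2 (24.4 to 37.3), 32.4 for the empty vector (26.9 to 39.2) and 56.4 in the library labelled overexpression (45.9 to 69.3). The RNA of the second enzyme thus exceeded that of the first by more than an order of magnitude in every library. The interval of the library labelled overexpression overlapped that of sc but not that of the empty vector.

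CKB (ENSG00000166165), the cytosolic brain-type creatine kinase, had the most counts of the 6 in every library, although per exonic length GAMT was higher in sc and shDCBLD2. It is deposited on chromosome 14 from 103985996 to 103989448 on the minus strand, with 2669 exonic bases. It had 1079 counts in sc, 1158 in shDCBLD2, 2219 for the empty vector and 12167 for the library labelled overexpression, or 55.2, 53.7, 121 and 737 CPM. The intervals of sc and shDCBLD2 overlapped. The empty vector lay above both, at 116 to 126 CPM, and the library labelled overexpression lay above all others, at 724 to 750 CPM.

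Between the library labelled overexpression and the empty vector CKB differed 6.10-fold (interval 5.83 to 6.38), a log2 ratio of 2.61 that 209 of 13966 genes exceeded. The controls themselves differed in this gene, since the empty vector was 2.19-fold above sc (interval 2.04 to 2.36). Set against sc, the library labelled overexpression was 13.4-fold higher (interval 12.6 to 14.2). The choice of control thus changes the size of the difference. In shDCBLD2 against sc the log2 ratio was −0.04 (interval −0.16 to 0.08), a difference within counting error. By deposited FPKM, CKB ranked 2187th of 13966 genes in sc, 2351st in shDCBLD2, 1011th with the empty vector and 148th in the library labelled overexpression.

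**Figure D1:**
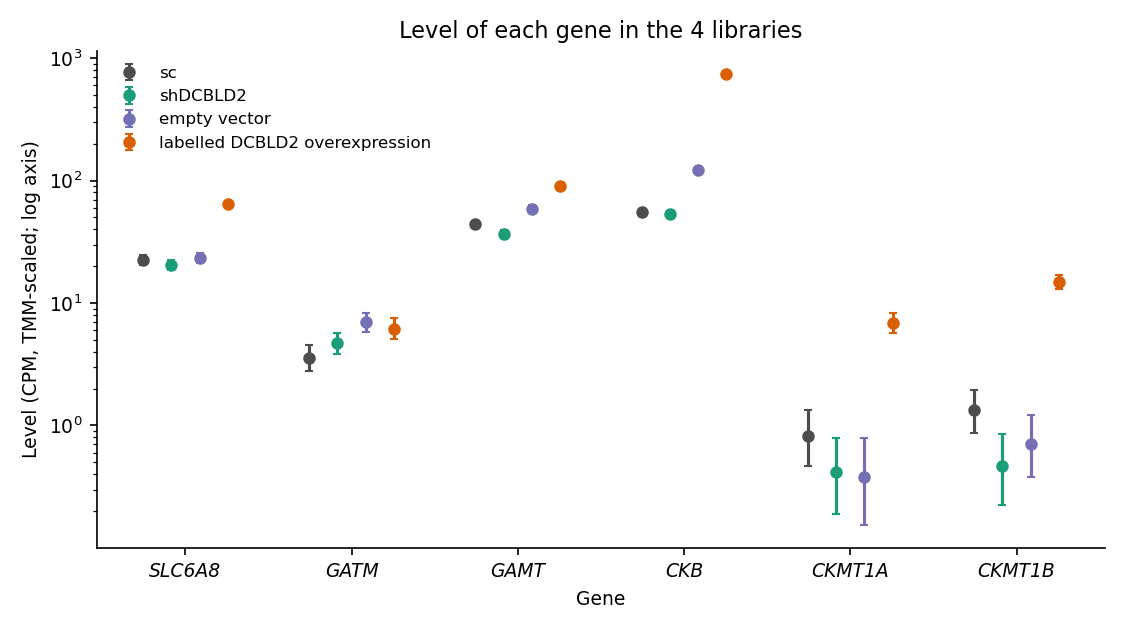
Level of each of the 6 genes (CPM after TMM scaling, log axis) in the 4 libraries, 1 library per condition. Points are single libraries and bars are exact 95% intervals that cover counting error only. SLC6A8, GAMT, CKB, CKMT1A and CKMT1B were highest in the library labelled overexpression, with CKB at 737 CPM there, and GATM was highest with the empty vector at 6.97 CPM.

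CKMT1A (ENSG00000223572) and CKMT1B (ENSG00000237289) lie near each other on chromosome 15 and encode the same mitochondrial enzyme. CKMT1A is deposited from 43985084 to 43991420 with 3088 exonic bases and CKMT1B from 43885252 to 43897099 with 3939, both on the plus strand. Their coding sequences on GRCh38 (GENCODE 29, transcripts CKMT1A-202 and CKMT1B-201) are 1251 bases each and differ at 2 positions, G1056A and C1086T, counted from 1 at the A of the start codon with the CKMT1A base first. Both differences are silent and lie in exon 8, so that the coding sequences are 99.8% identical. The stretch of exon 8 that holds both is shown because, within the coding sequence, only a read over one of these bases can be assigned to 1 of the genes. It spans chr15:43698655-43698715 in CKMT1A and chr15:43598841-43598901 in CKMT1B, plus strand, and the capitals mark the bases that differ.
CKMT1A: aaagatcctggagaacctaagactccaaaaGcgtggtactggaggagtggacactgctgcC
CKMT1B: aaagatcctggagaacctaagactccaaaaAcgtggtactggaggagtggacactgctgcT

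Of the 50-base windows in CKMT1A transcripts, 66.7% also occur in CKMT1B, and 57.4% of those in CKMT1B also occur in CKMT1A. At 100 bases the shares were 64.5% and 54.0%. The read length and the handling of reads with several matches are not given in the sources used here. The split between these genes is therefore uncertain, and their sum is the safer value. Yet if reads with several matches went uncounted, the sum would be too low as well. CKMT1A took 38.1% of the pair's counts in sc (interval 23.6 to 54.4), 47.4% in shDCBLD2 (24.4 to 71.1), 35.0% with the empty vector (15.4 to 59.2) and 31.6% in the library labelled overexpression (26.8 to 36.7), and these 4 intervals overlapped. Both genes also overlap the deposited entry of STRC on the opposite strand, which had at most 2 counts in any library.

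CKMT1A had 16 counts in sc, 9 in shDCBLD2, 7 for the empty vector and 113 for the library labelled overexpression. CKMT1B had 26, 10, 13 and 245 in the same order. Summed over the pair, the level was 2.15 CPM in sc, 0.881 in shDCBLD2, 1.09 for the empty vector and 21.7 for the library labelled overexpression. The last library lay far above the other 3, whose levels rest on 19 to 42 counts each. Against the empty vector the sum was 19.9-fold higher in CPM, and 4.18 on the log2 scale with a prior count of 2 (interval 3.67 to 5.04). For the single genes the log2 ratios were 3.81 (interval 3.08 to 5.51) for CKMT1A and 4.18 (interval 3.59 to 5.32) for CKMT1B.

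Both genes passed the filter of a mean of at least 1 CPM only through the library labelled overexpression. Over the other 3 libraries their mean was 0.539 CPM for CKMT1A and 0.834 CPM for CKMT1B. They were thus bound to differ in that library, and their calls there add nothing to a count of members. At the lower end, the sum in shDCBLD2 was below sc, with a log2 ratio of −1.20 (interval −2.15 to −0.47) on 19 against 42 counts. The empty vector was also below sc, by −0.91 (interval −1.82 to −0.18), on 20 counts, and shDCBLD2 differed from the empty vector by −0.28 (interval −1.29 to 0.67).

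Among the creatine kinases as a family, CKB made up nearly all of the RNA in each library. The 5 genes of the family summed to 21.99 FPKM in sc, 20.73 in shDCBLD2, 44.9 for the empty vector and 280.89 for the library labelled overexpression, and CKB held 96.2%, 97.2%, 98.9% and 97.8% of these sums. The muscle genes CKM, the cytosolic form, and CKMT2, the sarcomeric mitochondrial form, stayed at 2 to 6 and 6 to 14 counts and did not pass the filter. The pair CKMT1A and CKMT1B made up 2.82%, 1.25%, 0.668% and 2.12% of the FPKM sums. Shares of the pair would be too low, and those of CKB too high, if reads that match both genes of the pair went uncounted. As a share of raw counts, which has an interval but no length correction, the pair made up 3.75% of those on CKB, CKMT1A and CKMT1B in sc (interval 2.71 to 5.03), 1.61% in shDCBLD2 (0.97 to 2.51), 0.893% with the empty vector (0.55 to 1.38) and 2.86% in the library labelled overexpression (2.57 to 3.17). By this measure the mitochondrial share was higher in that library than with the empty vector, but its interval overlapped that of sc. Relative to synthesis, CKB was at 0.814 times the FPKM of GAMT in sc, 0.952 in shDCBLD2, 1.33 for the empty vector and 5.29 for the library labelled overexpression.

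**Figure D2:**
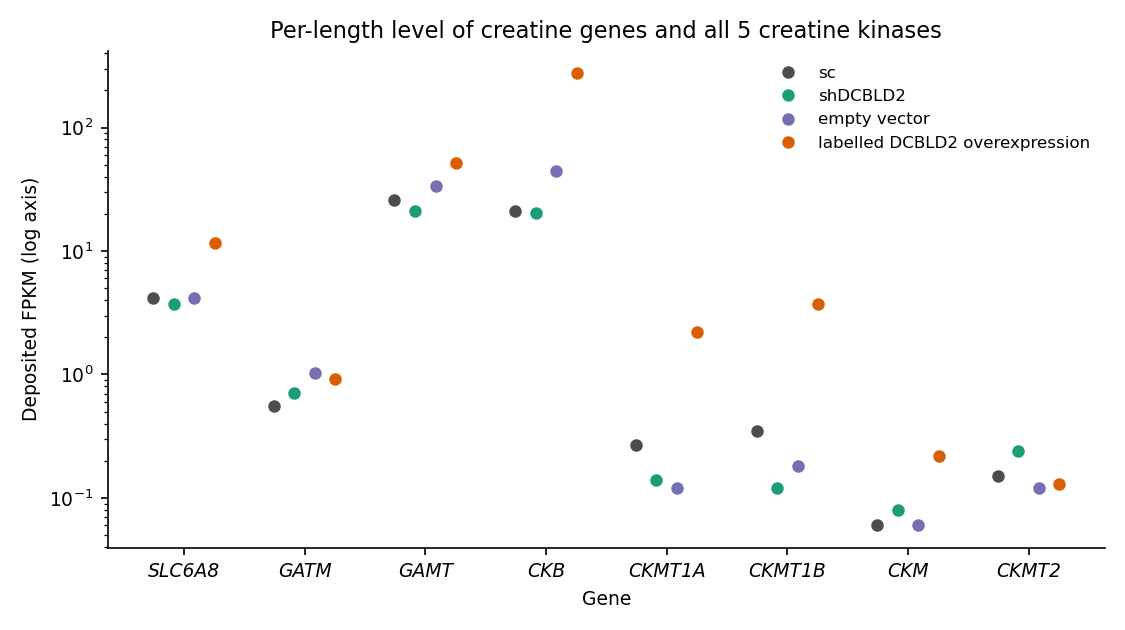
Deposited FPKM (log axis) of the 6 genes and of CKM and CKMT2, the other creatine kinases, in the 4 libraries. Each point is 1 library, so no error is drawn. CKB was at 20.15 to 274.59 FPKM, GATM at 0.55 to 1.03 FPKM, and CKM and CKMT2 were below 1 FPKM in every library.

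A gene was called higher or lower where the ratio reached 2-fold and the interval lay wholly on 1 side of no change. In the library labelled overexpression against the empty vector, 4 of the 6 genes were called higher (SLC6A8, CKB, CKMT1A and CKMT1B) and 0 lower, beside 6.39% of all 13966 genes called higher and 5.29% called lower. Of the 4 genes that pass the filter on the other 3 libraries, SLC6A8 and CKB were called higher, beside 4.48% of the 13663 genes past that filter. In shDCBLD2 against sc, 0 of the 6 were called higher and CKMT1B was called lower, on 10 against 26 counts, beside 1.17% and 5.65% of all genes. In the empty vector against sc, CKB was called higher and 0 lower, beside 2.21% and 1.89% of all genes. The median log2 ratio over all genes lay between −0.04 and 0.01 in the 3 comparisons. The first and the third comparison share the empty vector, and the second and the third share sc.

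**Figure D3:**
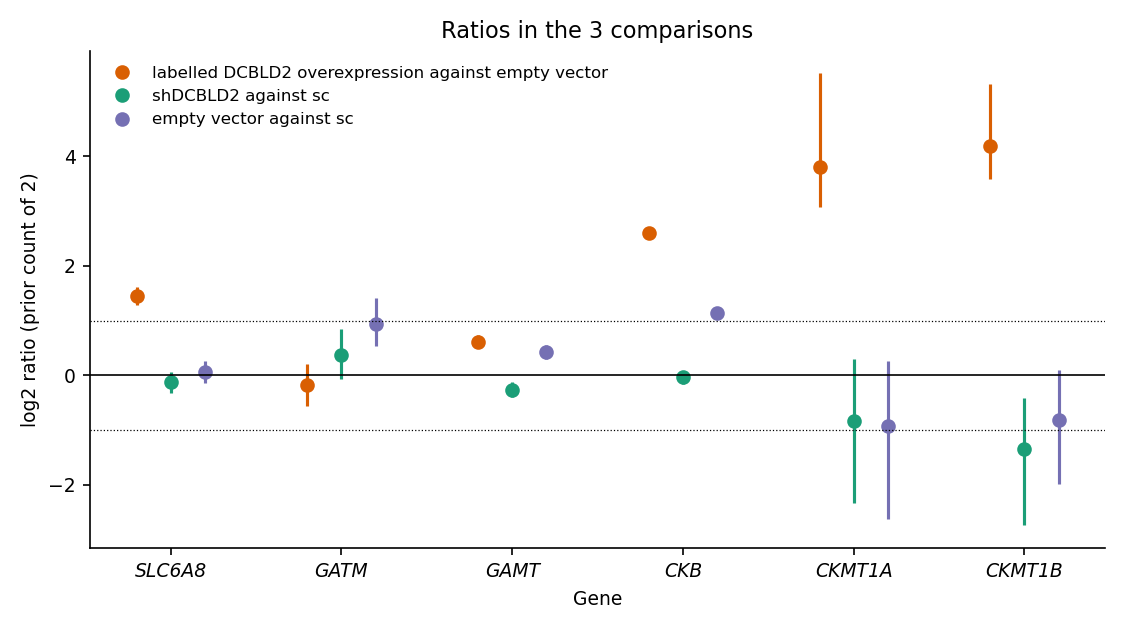
Log2 ratio of each gene in the 3 comparisons, computed with a prior count of 2 (points), with exact 95% intervals from the counts (lines). Dotted lines mark 2-fold. SLC6A8, CKB, CKMT1A and CKMT1B lie above the upper dotted line in the library labelled overexpression, at 1.45 to 4.18, and in shDCBLD2 against sc only the value of CKMT1B, −1.35, lies below the lower one.

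The promoters of SLC6A8 and CKB, the 2 well-counted genes called higher in the library labelled overexpression, are shown as the 250 bases before the start site (RefSeq, GRCh38.p14). They span chrX:153687676-153687925 on the plus strand and chr14:103522831-103523080 on the minus strand, written 5′ to 3′ along the gene. The motifs searched on both strands were the TATA box TATAAA, the CCAAT box, the GC box core GGGCGG, the E-box CACGTG, the AP-1 site TGANTCA and the TCF/LEF core CTTTGA, and capitals mark the matches.
SLC6A8: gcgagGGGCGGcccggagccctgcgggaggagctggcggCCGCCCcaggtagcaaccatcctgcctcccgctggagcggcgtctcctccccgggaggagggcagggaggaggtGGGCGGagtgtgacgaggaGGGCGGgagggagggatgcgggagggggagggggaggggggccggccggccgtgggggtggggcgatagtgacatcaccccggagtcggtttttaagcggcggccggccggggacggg
CKB: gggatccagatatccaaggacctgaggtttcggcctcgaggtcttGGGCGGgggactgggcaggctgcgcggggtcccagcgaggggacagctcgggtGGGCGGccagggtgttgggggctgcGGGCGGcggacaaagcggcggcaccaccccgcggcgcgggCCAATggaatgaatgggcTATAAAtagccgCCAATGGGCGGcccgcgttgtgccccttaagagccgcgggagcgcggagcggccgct
Both windows are rich in G and C, 76.4% in SLC6A8 and 70.8% in CKB, against a median of 58% over the 35116 promoter windows of the same length. SLC6A8 held 4 matches to GGGCGG and none to the other motifs. CKB held 4 to GGGCGG, 2 to CCAAT and 1 to TATAAA, which lies 69 bases before the start between the CCAAT matches at 87 and 57. The second CCAAT is followed directly by a GGGCGG, without overlap. Of all windows, 42.6% held GGGCGG, 32.0% CCAAT, 10.7% TATAAA, 6.34% the E-box, 6.57% the AP-1 site and 11.2% the TCF/LEF core. The GATM window, at 72.8% G and C, held 3 matches to GGGCGG and 1 to CCAAT. The window of GAMT was not analysed here. These matches are letters in a window and say nothing of which factor binds there.

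The pathways around creatine were described with gene lists. In the library labelled overexpression against the empty vector 6.39% of all genes were called higher and 5.29% lower. For shDCBLD2 against sc the shares were 1.17% and 5.65%, and for the empty vector against sc 2.21% and 1.89%. These shares apply to each list below. Among the other SLC6 transporters, which carry amino acids and neurotransmitters, 5 of 18 passed the filter. In the library labelled overexpression against the empty vector, SLC6A15, a transporter of branched-chain amino acids and proline, was called higher (7, 9, 31 and 130 counts in sc, shDCBLD2, the empty vector and the library labelled overexpression, log2 ratio 2.15). SLC6A15 passed the filter only through the library labelled overexpression, with a mean of 0.821 CPM over the other 3. The filter thus favoured a high value there without fixing the call, as the empty vector was itself at 1.69 CPM. SLC6A17 was called lower (188, 332, 144 and 52 counts, −1.29). The median over the 5 was 0.28, beside −0.04 over all genes. SLC6A15 was also higher with the empty vector than in sc, by 1.95, and none of these transporters was called in shDCBLD2 against sc.

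GATM draws on arginine and releases ornithine. Of 20 genes of arginine and ornithine metabolism 15 passed the filter, with a median of −0.06 in the library labelled overexpression against the empty vector. In this comparison 2 were called higher and 0 lower, beside 6.39% and 5.29% of all genes. ASS1, which makes the precursor of arginine, had 619, 234, 1154 and 2396 counts in sc, shDCBLD2, the empty vector and the library labelled overexpression. Its log2 ratios were 1.21 for the library labelled overexpression against the empty vector and −1.54 for shDCBLD2 against sc, where it was the only gene of the list called. With the empty vector ASS1 was above sc by 0.99. ARG2, the mitochondrial arginase, had 20, 17, 15 and 68 counts, a log2 ratio of 2.18 for the library labelled overexpression against the empty vector. Like SLC6A15 it passed the filter only through that library (mean of 0.876 CPM over the other 3). Of the 14 genes past the filter on the other 3 libraries, ASS1 alone was called higher.

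GATM also uses glycine, and GAMT uses S-adenosylmethionine. Of 20 genes of glycine and methyl donor metabolism 16 passed the filter, and AMT, of the glycine cleavage system, was the only one called in the library labelled overexpression against the empty vector (22, 22, 18 and 36 counts, log2 ratio 1.07, median of the list −0.01). None was called in the other comparisons. Adenylate kinases and the AMP-sensing kinases handle the same phosphate balance as creatine kinases. Of 19 such genes 17 passed, and AK5 was called lower in the library labelled overexpression against the empty vector (152, 209, 162 and 60 counts, −1.25, median of the list −0.23), with none called in the other comparisons. The 6 genes of the channels and carriers that mitochondrial creatine kinase works with all passed the filter, and none was called in any comparison, with medians of −0.08, 0.17 and 0.00.

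The genes beside each member on the chromosome were taken as the 3 nearest on each side past the filter, 30 genes in all without the members. In the library labelled overexpression against the empty vector 1 was called higher and 1 lower, beside 6.39% and 5.29% of all genes. The median log2 ratio of the neighbours was 0.14. The gene called higher was DUSP9, a MAP kinase phosphatase whose deposited entry lies 36773 bases from SLC6A8, with 97, 101, 165 and 556 counts in sc, shDCBLD2, the empty vector and the library labelled overexpression (log2 ratio 1.89). BCAP31, which lies 3899 bases to the other side, was at 0.30. Around CKB none of the 6 neighbours was called, with ratios from −0.67 (EIF5) to 0.52 (TRMT61A). Around CKMT1A and CKMT1B, PPIP5K1 was at 0.32 and CATSPER2P1 at 0.39 in this comparison, and neither was called. CATSPER2P1 was called lower in shDCBLD2 against sc, with 17 against 37 counts, as CKMT1B was. The gene called lower in the library labelled overexpression was AC027307.3 near GAMT, on 15 against 50 counts. In shDCBLD2 against sc it was the 1 neighbour called higher, and DUOX1 near GATM was called lower too. In the empty vector against sc AC027307.3 and C15orf48, which lies near GATM, were called higher and 0 neighbours were called lower. Over all genes 1.17% were called higher and 5.65% lower in shDCBLD2 against sc and 2.21% and 1.89% in the empty vector against sc.

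**Figure D4:**
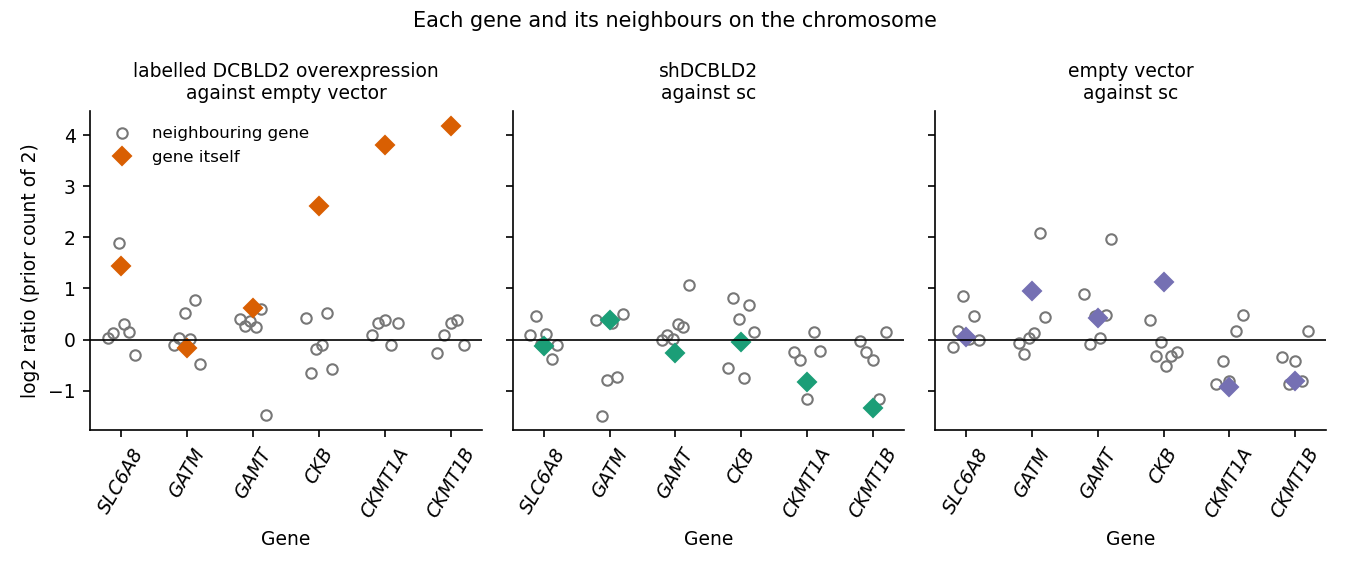
Log2 ratio (prior count of 2) of each of the 6 genes (diamonds) and of up to 3 neighbouring genes past the filter on each side (open circles) in the 3 comparisons, 1 library per condition. CKMT1A and CKMT1B, which neighbour each other, are drawn as members only. In the library labelled overexpression against the empty vector the neighbours lie between −1.47 and 1.89, a range that also holds SLC6A8, GAMT and GATM. Its upper end is 1 gene, DUSP9 beside SLC6A8. The next highest neighbour, C15orf48, is at 0.78, below SLC6A8 at 1.45. CKB, CKMT1A and CKMT1B lie above the range, and CKMT1A and CKMT1B passed the filter only through the library labelled overexpression.

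The genes whose pattern was most like that of each member were found by the distance between their log2 ratios in the 3 comparisons, over genes with at least 10 CPM on average. For SLC6A8 the nearest was RIMS4 (distance 0.147), then MARCKSL1 (0.178) and NRGN (0.253), and 29 genes lay within 0.5. For GAMT, MPND (0.0731), GRAMD1A (0.10) and NFKBIZ (0.114) came first, and 733 genes lay within 0.5. Its pattern was therefore a common one. For GATM the nearest were RELB (0.102), NFKBIE (0.158) and SIGIRR (0.181), with 118 genes within 0.5. The intervals of the 3 GATM ratios, on 70 to 128 counts, are each wider than 0.5, so this order and number are uncertain. The pattern of CKB had 2 genes within 0.5, SERPINF1 (0.388) and HLA-B (0.491), and IL32 followed at 0.600. CKMT1A and CKMT1B had no gene within 0.5, and FGG, the fibrinogen gamma chain, was nearest to both (0.770 and 0.813). Among the members the closest were CKMT1A and CKMT1B (0.645), which share most of their sequence, and the farthest were GATM and CKMT1B (5.0). These distances rest on 4 libraries and share their controls. For CKMT1A and CKMT1B, with 7 to 26 counts outside the library labelled overexpression, the intervals of the ratios are wider than 0.5. That no gene lay within 0.5 of them therefore says little.

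Markers of other cell types were set beside these values. Of 15 markers of A549 and epithelial cells all passed the filter, with a summed level of 36398 CPM in the library labelled overexpression and 26038 to 39016 CPM in the others. In shDCBLD2 against sc 6 of them were called lower, among them EPCAM and CDH1, and in the library labelled overexpression 3 were called higher than with the empty vector. Over all genes 5.65% were called lower in the former comparison and 6.39% higher in the latter. Of 9 markers of the alveolar type 2 cell only ABCA3 passed, and SFTPA1 was at 0 counts in all 4. Of 10 HEK293-like markers all passed, and LIN28B, NEFM, NEFL and SALL1 were called higher in the library labelled overexpression against the empty vector. NEFM and PAX2 passed only through that library. NEFM had 221 counts there and 0 to 4 in the others, and PAX2 had 55 counts there and 4 to 35 in the others. PEG10 (−0.77), MEIS2 (−0.43) and TSPYL5 (−0.23) had log2 ratios below 0 in this comparison and were not called. PCSK1N (0.96), PAX2 (0.77) and ZIC2 (0.37) were above 0 and not called either, and the median of the list was 0.86. In shDCBLD2 against sc NEFL was called higher too (1.21) and PAX2 lower (−1.52). PAX2 was called higher in the empty vector against sc (1.29). The summed level of this list was 287 CPM in the library labelled overexpression and 254 to 442 CPM in the others. PEG10 held much of these sums, at 81.2 CPM in the library labelled overexpression and 139 to 345 CPM in the others. The sums therefore follow PEG10 more than the other markers.

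Of 10 neural-like markers, named because CKB is abundant in brain, 6 passed and SYT1 was called higher in that library (1.16), with MBP at −0.78 and SNAP25 at −0.49, neither called. Over all genes 6.39% were called higher in the library labelled overexpression against the empty vector. RBFOX3 was called lower in shDCBLD2 against sc (−1.66) and higher in the empty vector against sc (1.21). STMN2 and SYT4 were at 0 in all 4 and the sum was 126 CPM there against 61.8 to 125 CPM in the others. Of 10 skeletal muscle-like markers 0 passed, and MYH1, MYH2, MYL1 and MYOG were at 0 in all 4. Of 10 fibroblast-like markers 4 passed, and FAP was at 0 in all 4. COL1A2 and COL3A1 were called higher in the library labelled overexpression, through which alone they passed. The sum was 82.3 CPM there against 38.2 to 59.4 CPM in the others. COL1A1, not called in any comparison, made up 63.1 CPM of the sum there. Of 10 blood-like markers 2 passed and 0 were called in the library labelled overexpression against the empty vector. PTPRC and MS4A1 were at 0 in all 4, and the sum was 23.8 CPM in that library against 5.19 to 16.4 CPM. CD14 made up 20.1 CPM of the sum in that library and was called lower in shDCBLD2 against sc (−1.06). Of 3 genes at 9p21 CDKN2A and MTAP passed, both only through the library labelled overexpression. Their counts there were 2104 and 104, against at most 33 in the others. CDKN2B had 7 counts there and 0 in each of the others. MTAP was also called higher in shDCBLD2 against sc (1.55), on 33 against 9 counts. The part of the markers and the 9p21 genes in the values of CKB, SLC6A8, CKMT1A and CKMT1B in the library labelled overexpression was not tested.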

How the data were processed

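RNA sequencing covered A549 cells in 4 libraries from poly(A) RNA, 1 per condition. The values the authors deposited are raw counts of reads for each gene, and FPKM, in which each count is divided by the exonic gene size and the library's total count on genes. The aligner, the counting program, the annotation and whether counting used the strand are not given in the sources used here. The submitters' processing notes name a mouse genome build, although the gene identifiers are human, so the deposited coordinates carry no build name and were not joined to GRCh38. FPKM was used to compare levels between genes, and, with a pseudocount of 0.1, as an alternative scale for the ratios.

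Counts were scaled with TMM factors (edgeR 4.0.16, R 4.3.3). Ratios and intervals were computed in Python 3.11.15 with scipy 1.17.1, numpy 2.4.6 and pandas 2.3.3, and figures were drawn with matplotlib 3.10.9. A prior count of 2 went into each log2 ratio. The 95% intervals come from the exact (Clopper-Pearson) interval of the first library's share of both raw counts. The counts of calls cover genes whose mean over the 4 libraries was at least 1 CPM. No test was run because each condition has 1 library. The calling step was tried on simulated counts that held counting error only, without TMM scaling. It therefore says nothing of the spread between cultures.

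The members, the gene lists and the rules were chosen with earlier results of these data known. Genes named are the 6 members, DCBLD2, the called genes of each list, the 3 genes with the nearest pattern, and neighbours that were called or are described beside a member. CDKN2A, the markers and further genes were named after their values were seen. Sequences come from GENCODE 29 transcripts and the RefSeq promoter table, which matched 5 of the 6 genes.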

Additional observations from a re-analysis of the deposited data

How the results depend on the processing

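The alternatives were DESeq2 size factors (1.42.0), library totals alone, ratios of the deposited FPKM, prior counts of 0.5 and 5, thinning of all libraries to the smallest total, no filter or a mean of at least 5 CPM, a 1.5-fold threshold, the other control library and the sums of CKMT1A and CKMT1B and of SLC6A8 and its copies. A filter on the other 3 libraries, also applied to the gene lists, was chosen after seeing the data. Of 177 alternatives over 24 results, 6 gained a call, 1 lost it and 5 moved a count of members by over 1.5 times. No called ratio changed sign. A threshold of 1.5-fold leaves every ratio as it is, and the copy SLC6A10P added 0 counts to SLC6A8. Those alternatives could therefore not change a sign. Of the 147 alternatives for a log2 ratio, 5 changed the sign of a ratio that was not called: GATM in the library labelled overexpression with sc as control (−0.17 to 0.77), GATM (0.38 to −0.56) and CKMT1A (−0.83 to 0.10) in shDCBLD2 with the empty vector as control, and SLC6A8 in the empty vector against sc (0.06) with library totals and with FPKM, by which it fell just below 0. No paired analysis was possible because each condition has 1 library.

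At a 1.5-fold threshold GAMT was called in the library labelled overexpression (0.62), which made 5 members in place of 4, GATM was called in the empty vector against sc (0.94), and 2 members in place of 1 were called higher in the latter comparison. With sc as the control of the library labelled overexpression, GAMT was called too (1.04). With the empty vector as the control of shDCBLD2, CKB was called lower (−1.17), and CKMT1B was no longer called (−0.52). Summing CKMT1A and CKMT1B gave a call in shDCBLD2 against sc (−1.20, against −0.83 for CKMT1A). Thinning gave a call for CKMT1B in the empty vector against sc (−1.06). At 5 CPM, and likewise with the filter on the other 3 libraries, 2 members were called higher in the library labelled overexpression in place of 4, and 0 were called lower in shDCBLD2 against sc in place of 1, since fewer members pass.

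Counts over all genes followed the filter and the threshold. In the library labelled overexpression 893 were called higher, and 1869 without a filter, 339 at 5 CPM and 1788 at 1.5-fold. The lower calls numbered 739, 1002, 492 and 2481. In shDCBLD2 against sc the lower calls were 789, 1278, 338 and 1621 and the higher 163, 419, 61 and 690. In the empty vector against sc the higher were 309, 593, 96 and 987 and the lower 264, 524, 84 and 932. Counting depth limits CKMT1A and CKMT1B most, with 7 to 26 counts outside the library labelled overexpression.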
